A study of Rattus norvegicus with 24 samples.

Results

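Chemokines and chemokine receptors were followed in the retina of rats made diabetic with streptozotocin (STZ). The set was 9 genes named in advance, namely the ligands Ccl2, Ccl3, Ccl4, Ccl5, Cx3cl1 and Cxcl12 and the receptors Ccr2, Cx3cr1 and Cxcr4. Every probe whose RefSeq accession maps to 1 of these symbols was taken, out of 33911 probes on the array and 4012 genes that could be named this way. Of the 9 genes, 8 had a probe, 1 probe each, and Cxcr4 was not analysed here. The probes were GE13264 for Ccl2, GE1102007 for Ccl3, GE1286011 for Ccl4, GE20844 for Ccl5, GE13219 for Cx3cl1, GE13469 for Cxcl12, GE20827 for Ccr2 and GE20839 for Cx3cr1.

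The study asked how retinal gene expression changes as diabetes becomes longer, and read it on CodeLink rat whole genome arrays, which are spotted oligonucleotides read in 1 color. There were 4 groups of 6 arrays of retinal RNA, 24 arrays in all. The study's animal table lists fewer animals for 1M Control than there are arrays, so n counts arrays, and the 6 arrays of 1M Control may not all be separate rats. The p-values of the 1 month comparison then measure the spread between arrays. Because 1 model was fitted to all 24 arrays, the 1M Control arrays also enter the variance behind the 3 month and interaction p-values. The diabetic groups were male Sprague Dawley rats that had received intraperitoneal STZ, a toxin of the insulin-producing beta cells, in a citrate vehicle, and were taken 1 month (1M STZ) or 3 months (3M STZ) later. The controls of the same ages, 1M Control and 3M Control, were male Sprague Dawley rats given the vehicle alone. STZ rats entered the diabetic groups only if they became hyperglycemic, and none received insulin, so the model is one of untreated insulin deficiency. The tissue was whole retina, in which fewer cells of a type and less RNA per cell cannot be told apart.

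Chemokines are small secreted proteins that direct the movement of leukocytes by binding G protein-coupled receptors on them. Ccl2 draws monocytes through Ccr2, and Ccl3, Ccl4 and Ccl5 draw monocytes, macrophages and T cells. Cx3cl1 (fractalkine) is made as a membrane-bound protein, in the nervous system mainly by neurons, and acts on Cx3cr1 of microglia, the resident macrophages of the retina. Cxcl12 acts on Cxcr4 and guides stem cells, leukocytes and growing vessels.

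In retina after 3 months of diabetes, Ccl2 was 2.41-fold higher than in age-matched controls. The 6 diabetic and the 6 control arrays did not overlap, a separation that 9.49% of all tested probes showed. The control level was near background, which 4 of the 6 control arrays did not exceed, so the fold is approximate. Cx3cl1 was 1.67-fold higher after scaling to the array median, a log2 difference of 0.74 that came down to 0.23 and did not pass the test when the arrays were quantile-normalized. Cxcl12 and Ccl4 did not pass the test. Ccl3, Ccl5, Ccr2 and Cx3cr1 were not above the background of the arrays in any group, apart from Ccr2 on 2 control arrays. At 1 month 0 of the tested genes passed.

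Promoter sequences are shown for Cx3cl1 and Cxcl12, the genes of the set whose probes were above background on all 24 arrays. RefSeq promoter entries (build GRCr8) were at hand for 5 of the 9 genes, and not for Ccl2, Ccl3, Ccl4 and Ccl5. Each sequence is the 250 bases before the annotated start, read 5′ to 3′ on the strand of the gene, at chr19:10242821-10243070 (minus strand) for Cx3cl1 and at chr4:152060531-152060780 (plus strand) for Cxcl12. Capitals mark, on either strand, the core letters of the TATA box, which are TATAAA, and of the GC box, which are GGGCGG.
Cx3cl1: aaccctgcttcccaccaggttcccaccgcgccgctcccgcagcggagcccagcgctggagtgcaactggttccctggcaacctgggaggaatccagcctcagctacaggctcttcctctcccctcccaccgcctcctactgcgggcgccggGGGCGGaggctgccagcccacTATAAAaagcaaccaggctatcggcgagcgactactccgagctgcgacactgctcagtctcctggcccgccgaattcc
Cxcl12: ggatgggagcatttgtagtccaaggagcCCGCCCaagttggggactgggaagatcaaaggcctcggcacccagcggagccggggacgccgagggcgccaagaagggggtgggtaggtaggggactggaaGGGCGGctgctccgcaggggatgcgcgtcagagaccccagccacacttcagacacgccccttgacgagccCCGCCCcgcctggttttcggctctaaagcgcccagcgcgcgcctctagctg
The Cx3cl1 sequence held 1 match to TATAAA, whose first letter lay 78 bases before the start, and 1 match to GGGCGG. The Cxcl12 sequence held 0 matches to TATAAA and 3 to GGGCGG. Over the same window of 33469 promoters, 12.9% held TATAAA and 30.5% held GGGCGG. G and C made up 66.4% of the Cx3cl1 bases and 67.6% of the Cxcl12 bases, against a median of 51.2% over all promoters. The letters TGANTCA, an AP-1 site that 6.34% of all promoters held on either strand, were in 0 of the 5 promoters searched. A match is a description of letters only.

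Levels below are log2 of the background-subtracted intensity divided by the median of the rat probes of the same array, so that 0 is the array median, and levels of different probes are not compared. The background was read from 62 probes for bacterial genes on each array. The median of those probes lay at -3.16 in 1M Control and -3.54 in 1M STZ (medians over 6 arrays). It lay at -0.55 in 3M Control and -0.85 in 3M STZ, so the floor of the 3 month arrays stood much closer to the median probe. Floor here means the level of the bacterial probes and not the lowest signal. Cx3cr1 lay below it at 3 months, with medians of -2.90 in 3M Control and -3.19 in 3M STZ. Before scaling, the 3M STZ arrays were also dimmer, with a median intensity between 125 and 164, against 149 to 308 in 3M Control. A probe was called above background on an array when it exceeded the 95th percentile of the bacterial probes there. Levels at 1 month and at 3 months differ in this floor, and age and array set cannot be told apart between them, so each STZ group is compared with its own controls. The tissue carried its neuronal transcripts, 13 of the 14 retinal neuron markers with a probe being bright enough to test.

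Each STZ group was set against its controls with limma, which fitted all 24 arrays together, over 22025 probes whose median scaled intensity passed 0.554. A probe was called when its adjusted p (Benjamini-Hochberg) was under 0.05 and the difference at least 1.2-fold. By that rule 0.00908% of the tested probes were called at 1 month and 54.1% at 3 months, of which 50.5% of the tested probes were higher and 3.55% lower in STZ. The median log2 difference of all tested probes was 0.013 at 1 month and 0.44 at 3 months, so a difference of a gene at 3 months is read against that shift. Of the 4 genes of the set that could be tested, Ccl2 and Cx3cl1 were higher at 3 months, a share (2 of 4) close to the 50.5% of all probes. None was lower. At 1 month limma called 0 of the 4, with 0 at an unadjusted p under 0.05 and 0 by the unequal-variance test that the study's methods name, which called 1.19% of all tested probes. None had all 6 STZ arrays above all 6 control arrays at 1 month, against 0.336% of all tested probes.

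Ccl2, the monocyte attractant, was above background on 20 of 24 arrays, the exceptions being 4 of the 3M Control arrays. At 1 month its level ranged from 0.41 to 1.72 (median 0.80) in controls and from 0.89 to 1.21 (median 1.02) in STZ rats. The groups lay over each other, with the STZ rats inside the control range. The difference was 0.11 ± 0.23 (log2, SE, n = 6 per group; limma adjusted p = 1.00), with a 95% interval of -0.36 to 0.59. It was 0.012 without 1M Control 1 and 0.27 without 1M Control 5. The paper's quantitative PCR gave an increase of Ccl2 at 1 month that this probe did not show. Why the 2 measurements differ was not tested.

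At 3 months the Ccl2 level was 0.01, -0.03, 0.22, 0.61, 0.32 and 0.75 on control arrays 1 to 6. It was 1.81, 0.99, 0.93, 1.19, 2.52 and 2.07 on STZ arrays 1 to 6. Every diabetic rat was above every control rat, a separation that 9.49% of all tested probes showed. The STZ rats were themselves uneven, with 3 of them between 0.93 and 1.19 and the other 3 between 1.81 and 2.52. The mean rose from 0.31 ± 0.32 to 1.58 ± 0.65 (SD, n = 6), a difference of 1.27 ± 0.23 (SE; 95% interval 0.80 to 1.74; limma adjusted p = 0.00033). Of all tested probes, 1.33% had a difference at least as large under this scaling. Because 4 of the 6 control values did not exceed the bacterial 95th percentile, the control level is close to the floor of those arrays.

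The Ccl2 difference did not rest on 1 scaling. It was 1.11 after quantile normalization, 1.67 after the bacterial median was subtracted from each array, and 0.98 with array brightness as a covariate, and limma called it in each case. Quantile normalization called 24.6% of all tested probes higher and the bacterial subtraction 21.6%. A difference at least as large as that of Ccl2 was found for 6.91% of tested probes after quantile normalization. That share was 18.5% with the bacterial median subtracted and 2.35% with the brightness covariate. The methods' test at 3 months, which called 15.8% of them higher, called Ccl2 and no other gene of the set. It stayed between 1.08 and 1.40 when each array was left out in turn, and was called every time. The unscaled intensity was 240 to 358 in 3M Control and 260 to 719 in 3M STZ, so the groups overlapped before scaling, as the plot of Ccl2 against array brightness shows.

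**Figure D1:**
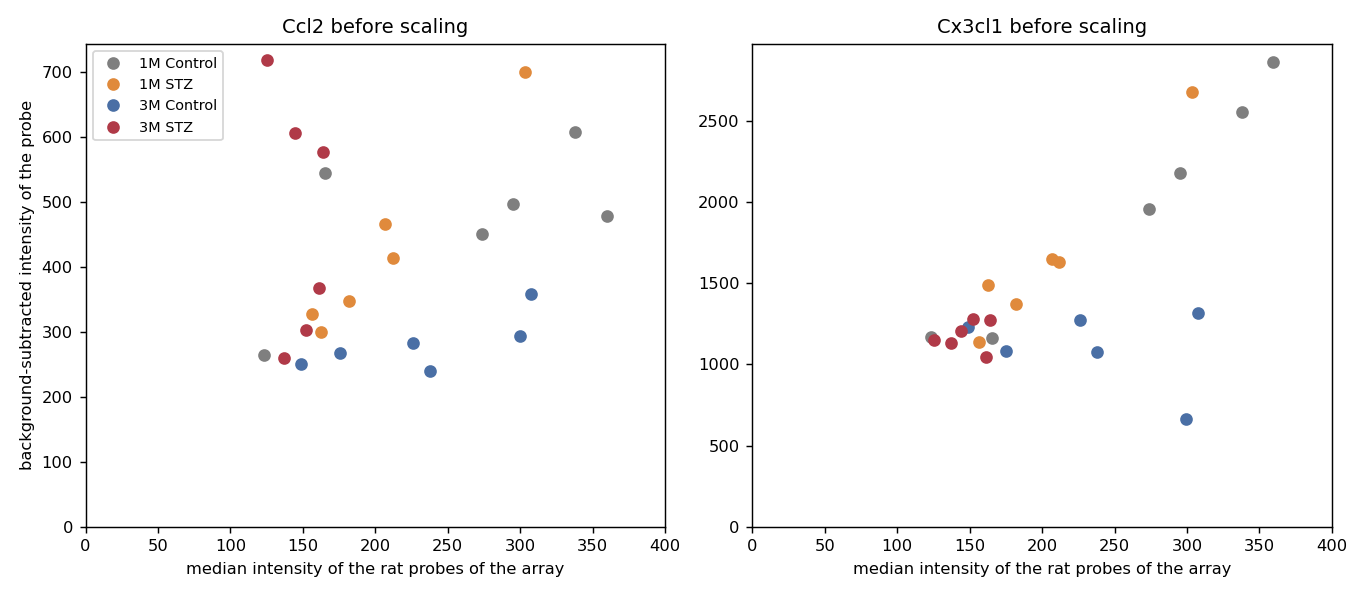
Background-subtracted intensity of the Ccl2 probe (left) and the Cx3cl1 probe (right) against the median intensity of the rat probes of the same array, both in linear units before scaling, with 1 point per array colored by group. On the 3M STZ arrays, whose medians lay between 125 and 164, Ccl2 reached 719 units, while Cx3cl1 lay between 1047 and 1280 there and between 663 and 1317 on the 3M Control arrays.

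Whether the effect of diabetes on Ccl2 was larger at 3 months than at 1 month was tested as an interaction. The effect at 3 months exceeded that at 1 month by 1.16 ± 0.33 (log2, SE; 95% interval 0.49 to 1.83; limma adjusted p = 0.029), and Ccl2 was the 1 gene of the 4 that passed. Of all tested probes, 15.5% passed this test. With array brightness as a covariate the interaction was 1.00 (adjusted p = 0.053, limma), and with quantile normalization within each time point 0.92 (adjusted p = 0.079, limma), neither of which passed. It also did not pass when 3M Control 1, 3M Control 3, 3M STZ 5 or 3M STZ 6 was left out, with values from 0.97 to 1.14. The arrays of the 2 time points differed in floor, and with the bacterial median subtracted from each array the interaction was 1.57 (adjusted p = 0.040, limma), which passed.

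**Figure D2:**
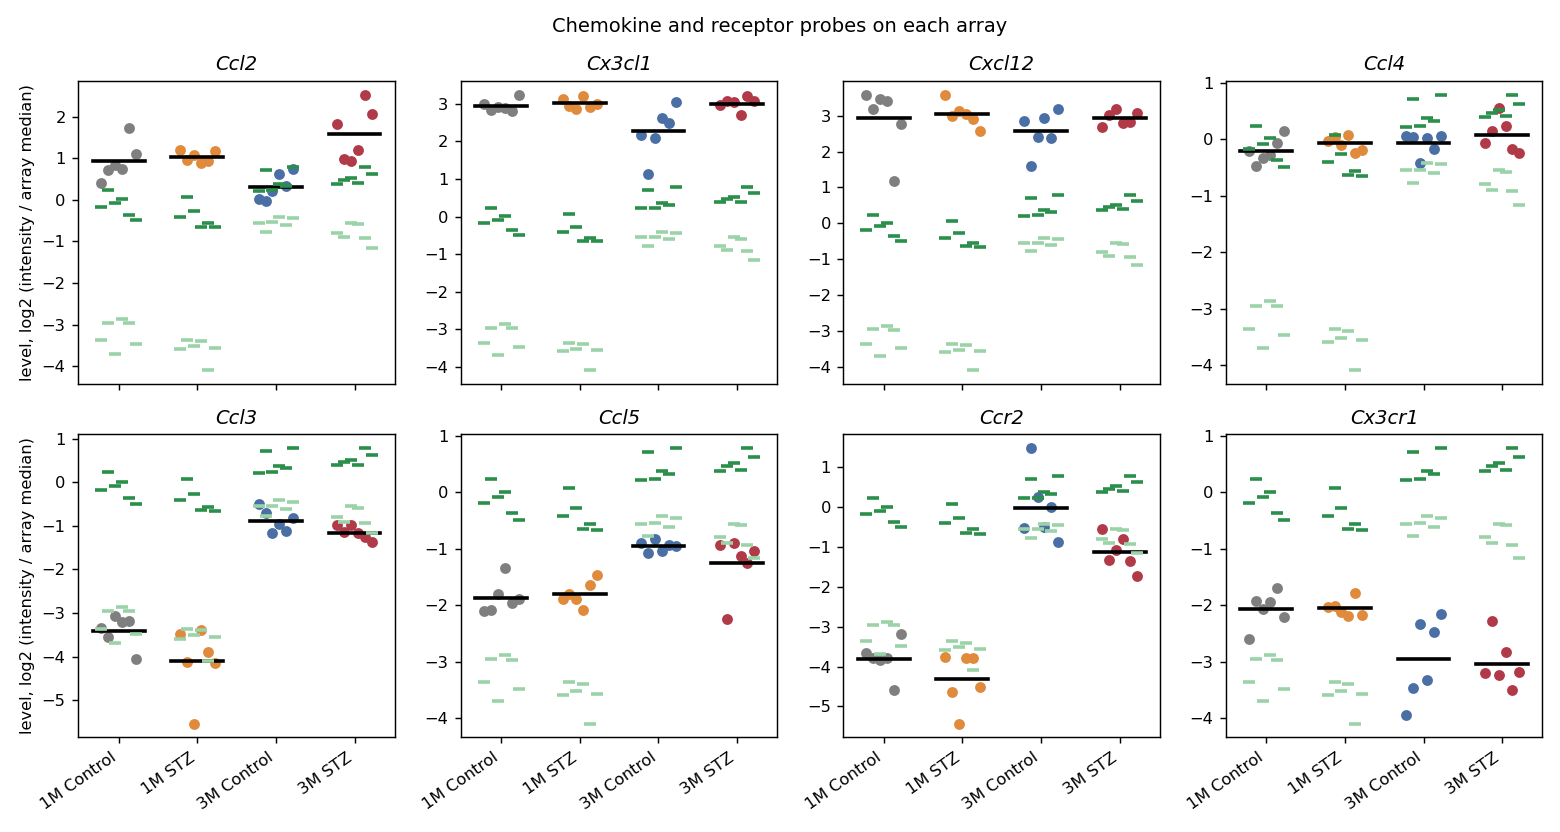
Level of each probe on each of the 24 arrays (points, log2 of intensity over the array median; 6 arrays in each of the 4 groups), with the group mean as a black line, the 95th percentile of the bacterial probes of each array as a dark green dash and their median as a light green dash. Ccl2, Cx3cl1 and Cxcl12 lie above the dark dashes except Ccl2 on 4 of the 3M Control arrays, while Ccl3, Ccl5 and Cx3cr1 lie under them on all 24 arrays.

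Cx3cl1, the fractalkine ligand of microglia, was above background on all 24 arrays. At 1 month it ranged from 2.82 to 3.24 (median 2.90) in controls and from 2.87 to 3.20 (median 2.97) in STZ rats. These ranges nearly coincided, and the difference was 0.06 ± 0.20 (SE, n = 6 per group; 95% interval -0.34 to 0.46; limma adjusted p = 1.00). At 3 months it ranged from 1.15 to 3.05 (median 2.34) in controls and from 2.70 to 3.20 (median 3.06) in STZ rats.

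The 3 month groups overlapped, 3 of the 6 diabetic rats being above every control, and the spread lay mostly in the controls. The mean was 2.27 ± 0.65 in controls and 3.01 ± 0.17 in STZ rats (SD, n = 6), a difference of 0.74 ± 0.20 (SE; 95% interval 0.34 to 1.14; limma adjusted p = 0.0040). The lowest control, 3M Control 2 at 1.15, had the lowest median correlation of all arrays with the rest of its group (0.842), and without it the difference was 0.52 and still called. The interaction of 0.68 ± 0.28 (SE) did not pass (limma adjusted p = 0.077).

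The Cx3cl1 call depended on how the arrays were scaled. The difference was 0.23 after quantile normalization (adjusted p = 0.25, limma), 0.45 with the bacterial median subtracted (adjusted p = 0.28, limma) and 0.50 with array brightness as a covariate (adjusted p = 0.080, limma), none of which passed. The unscaled intensity of the probe had medians of 1158 in 3M Control and 1180 in 3M STZ. The dimmer 3M STZ arrays and the higher floor of the 3M Control arrays moved with the groups, and their part in the Cx3cl1 difference was not tested beyond these settings.

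**Figure D3:**
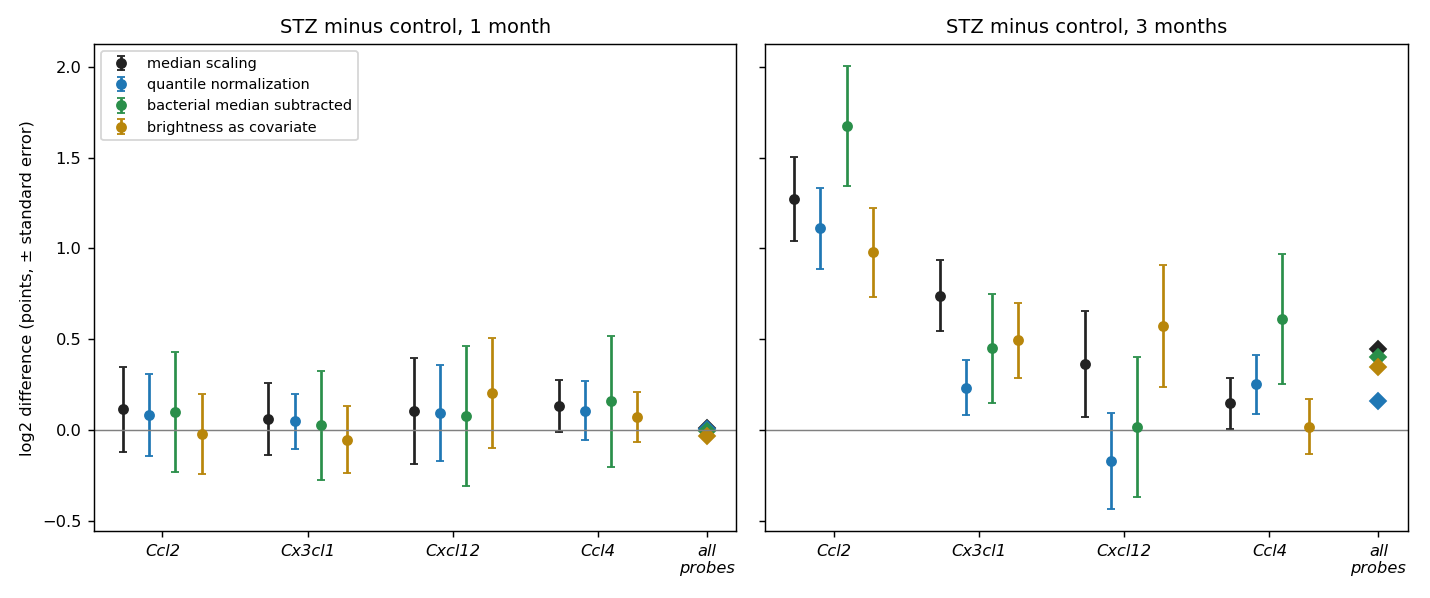
Difference between STZ and control (log2, points with the standard error as bars) of the 4 tested genes at 1 month (left) and 3 months (right) under 4 ways of scaling, with the median of all tested probes as diamonds. At 3 months Ccl2 stays between 0.98 and 1.67, Cx3cl1 runs from 0.23 to 0.74, and Cxcl12 lies on both sides of 0.

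Cxcl12, the ligand of Cxcr4, was above background on all 24 arrays. At 1 month it ranged from 1.19 to 3.58 (median 3.30) in controls and from 2.58 to 3.57 (median 3.02) in STZ rats. All but 1 of the controls lay between 2.77 and 3.58, and 1M Control 5 at 1.19 was far below them. The difference was 0.11 ± 0.29 (SE, n = 6 per group; limma adjusted p = 1.00), and it was -0.24 without that array.

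At 3 months Cxcl12 ranged from 1.60 to 3.19 (median 2.64) in controls and from 2.69 to 3.18 (median 2.91) in STZ rats. The diabetic rats lay within the control range. The difference was 0.37 ± 0.29 (SE; 95% interval -0.23 to 0.96; limma adjusted p = 0.28), below the 0.44 of all tested probes, and it was -0.17 after quantile normalization. It was 0.17 without 3M Control 2 and 0.49 without 3M Control 6. Group means at 3 months were 2.56 in controls and 2.93 in STZ rats.

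Ccl4, a ligand of macrophages and T cells, was tested but close to the floor, being above background on 8 of 24 arrays. It ranged from -0.48 to 0.13 in 1M Control, from -0.25 to 0.07 in 1M STZ, from -0.42 to 0.05 in 3M Control and from -0.25 to 0.55 in 3M STZ. All 4 groups overlapped. The difference was 0.13 ± 0.14 at 1 month (SE; 95% interval -0.16 to 0.42; limma adjusted p = 1.00) and 0.15 ± 0.14 at 3 months (95% interval -0.15 to 0.44; limma adjusted p = 0.38). The 3 month difference ran from 0.052 to 0.21 as each array was left out and from 0.020 to 0.61 over the other settings. It was called in 0 of them.

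Ccl3 and Ccl5, the other ligands of this group, were under the intensity limit for testing and above background on 0 of 24 arrays. Ccl3 had a median of -3.28 in 1M Control, -4.01 in 1M STZ, -0.90 in 3M Control and -1.16 in 3M STZ, near the bacterial medians given above. Ccl5 had a median of -1.93, -1.84, -0.94 and -1.08 in the same order, and 3M STZ 2 at -2.23 lay below the rest of its group. For both genes the range of the STZ rats overlapped that of the controls at each time. No level of either transcript could be told from background at this signal.

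Among the receptors, Ccr2, the receptor of Ccl2 on monocytes, was under the limit for testing. Its level ranged from -4.59 to -3.19 in 1M Control and from -5.43 to -3.77 in 1M STZ, at the level of the bacterial probes. At 3 months it ranged from -0.89 to 1.48 (median -0.24) in controls and from -1.72 to -0.54 (median -1.20) in STZ rats. The probe was above background on 2 of the 3M Control arrays and on no other. With no filter on dim probes it entered the test, and its 3 month difference of -1.10 passed (adjusted p = 0.012, limma). In that setting 14.2% of all probes were called lower. The difference was -0.80 without 3M Control 2 and -1.58 after quantile normalization, so its direction held and its size did not. With the bacterial median subtracted it was -3.41. On most 3M STZ arrays the level lay under that median, so the subtraction left no signal there and nothing is read from this value. The bacterial median itself was lower in 3M STZ than in 3M Control, at -0.85 against -0.55. With 10 of the 12 values under background, no size of change can be read for this probe.

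Cx3cr1, the receptor of Cx3cl1 and a gene that microglia express, was above background on 0 of 24 arrays. At 1 month it ranged from -2.60 to -1.70 in controls and from -2.20 to -1.79 in STZ rats, and at 3 months from -3.93 to -2.15 and from -3.50 to -2.28. Between 56.5% and 67.7% of the bacterial probes of an array lay under it at 1 month, and at most 1.61% at 3 months. No change or lack of change of the receptor could be read from this probe. With Cxcr4 not analysed here, none of the receptors of the set gave a testable signal on these arrays.

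Other chemokine ligands were measured from a list of 29, of which 10 had a probe and 4 could be tested. At 3 months 2 of the 4 were higher in STZ and 0 lower, a share close to the 50.5% of all probes, with a median of 0.60 against 0.44 for all tested probes. Cxcl11 is an interferon-induced ligand of Cxcr3. It ranged from -0.89 to -0.07 in controls and from 0.18 to 0.39 in STZ rats without overlap, as for 9.49% of tested probes. It was higher by 0.72 ± 0.15 (SE; limma adjusted p = 0.00075), and by 1.11 after quantile normalization.

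Cxcl10, another interferon-induced Cxcr3 ligand, ranged from -1.34 to -0.72 in 3M Control and from -0.95 to -0.19 in 3M STZ. It was higher by 0.49 ± 0.15 (SE; limma adjusted p = 0.011), but neither Cxcl10 nor Cxcl11 was above background on any 3 month array. Ccl28, a mucosal epithelial chemokine, had a mean difference of 0.95 that did not pass (limma adjusted p = 0.16). It came from 3M STZ 1, whose level was 5.82 while the other 3M STZ arrays lay between -0.02 and 0.32. Cxcl1, a neutrophil attractant, had a difference of -0.03.

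Of 20 other chemokine receptors, 8 had a probe and 7 were tested. At 3 months 3 were higher in STZ and 0 lower (50.5% and 3.55% of all tested probes), with a median of 0.23, below the 0.44 of all probes. Ackr2 is a decoy receptor that clears inflammatory CC chemokines including Ccl2. It ranged from -3.04 to -0.43 in controls and from -0.26 to 0.19 in STZ rats without overlap, as for 9.49% of tested probes. It was higher by 1.33 ± 0.24 (SE; limma adjusted p = 0.00035), on arrays where 0 of 12 values were above background, while at 1 month it was above background on all 12 arrays and differed by 0.10 ± 0.24.

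Ccr9, the receptor of gut-homing T cells, was above background throughout and ranged from 0.74 to 2.20 in 3M Control and from 1.89 to 2.53 in 3M STZ. It was higher by 0.78 ± 0.18 (SE; limma adjusted p = 0.0015), and by 0.33 after quantile normalization, which did not pass. Cmklr1, the chemerin receptor, was higher by 0.56 ± 0.15 (SE; limma adjusted p = 0.0040), and was above background on 0 of the 12 arrays at 3 months. Cxcr3 (0.23), Ackr3 (0.13), Cxcr1 (-0.34) and Ccr3 (-0.40) did not pass at 3 months. At 1 month limma called 0 of these 11 ligands and receptors, with 1 (Cxcr1, 0.48) at an unadjusted p under 0.05 and 2 by the methods' test. Of the 22025 tested probes, 927 were under that unadjusted p and 262 (1.19%) were called by the methods' test.

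**Figure D4:**
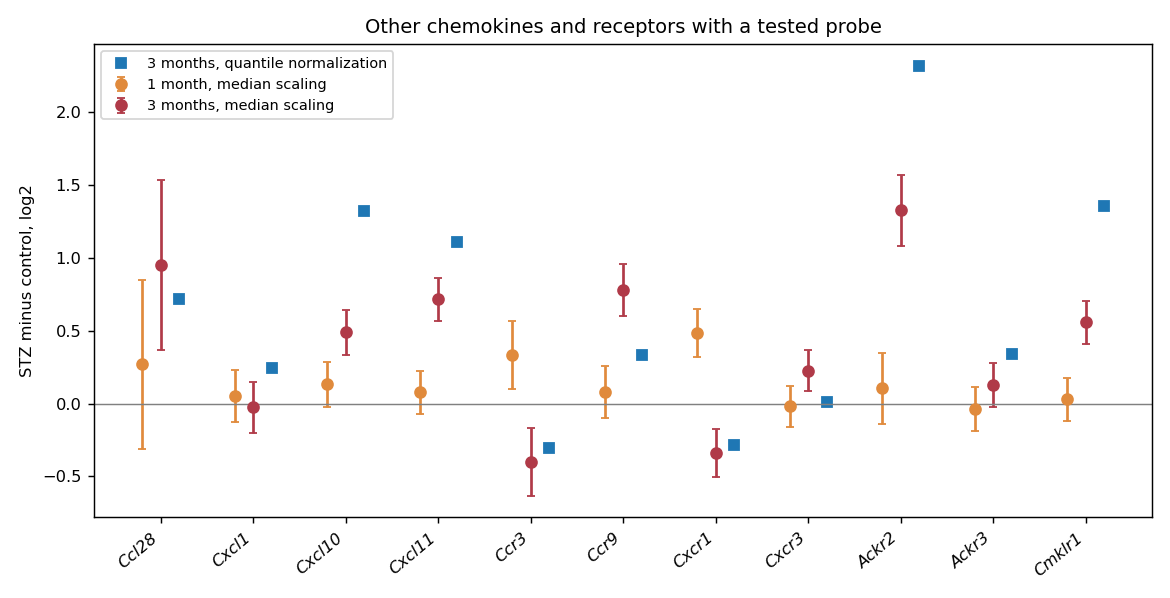
Difference between STZ and control (log2; circles with the standard error, at 1 month and at 3 months after median scaling; squares, at 3 months after quantile normalization) for the 4 other chemokines and 7 other receptors with a tested probe. Ackr2 (1.33) and Cxcl11 (0.72) are higher at 3 months under both scalings but under background on all 12 of the 3 month arrays, and Ccr9 falls from 0.78 to 0.33.

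Downstream of the receptors, 33 genes of G protein signaling, receptor desensitization and chemokine processing were listed, of which 15 were tested. At 3 months 9 were higher and 1 lower, against 50.5% higher and 3.55% lower among all tested probes, with a median of 0.49 against 0.44. The inhibitory G protein subunits Gnai2 (1.16 ± 0.22, SE; limma adjusted p = 0.00047) and Gnai3 (0.90 ± 0.25; limma adjusted p = 0.0049) rose, as did the focal adhesion kinase Ptk2 (1.01 ± 0.23) and the receptor kinase Grk6 (0.68 ± 0.19). The lower one was Adam17, a protease that sheds Cx3cl1 from the membrane, with a difference of -0.33 ± 0.14 (SE; limma adjusted p = 0.0496). It was above background on 0 of the 12 arrays at 3 months, where the bacterial median moved by a like amount, so no fall of the transcript can be read. After quantile normalization 6 of the 15 were higher and 1 lower, against 24.6% of all tested probes higher and 1524 of the 22025 lower. Gnai2, Gnai3 and Ptk2 were still called and Grk6 was not.

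Of 25 regulators that switch chemokine genes on, from the NF-kB pathway and its cytokines, 12 were tested. At 3 months 6 were higher, a share close to the 50.5% of all probes, with a median of 0.43, no larger than that of all probes. Ikbkg, the regulatory subunit of the IkB kinase, was higher by 1.15 ± 0.20 (SE; limma adjusted p = 0.00024) and Jun, a part of AP-1, by 1.06 ± 0.21 (limma adjusted p = 0.0006). Ikbkg was above background on 0 of the 6 control arrays. The cytokines Il1a (0.98 ± 0.18) and Il6 (0.88 ± 0.19) were called too, but Il1a was above background on 0 of the 6 control and 3 of the 6 STZ arrays, and Il6 on 0 of the 12, so their sizes cannot be read. After quantile normalization 5 of the 12 were higher, Ikbkg, Jun, Il1a and Il6 among them, against 24.6% of all tested probes. At 1 month limma called 0 genes of both lists, with 1 at an unadjusted p under 0.05 and 0 by the methods' test. The counts over all 22025 tested probes were 927 and 262.

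Markers of the cells that make or answer chemokines were followed beside these genes. Of 18 microglia and macrophage markers 7 had a probe and 5 were tested. At 3 months C1qb (1.25 ± 0.17), Itgam (0.64 ± 0.19) and Ctss (0.49 ± 0.15, all SE) were higher, against 50.5% of all tested probes, and the other 2 did not pass. On the 6 control arrays C1qb was above background on 1 and Itgam on 0. Their summed level ran from 2.81 to 3.50 in 3M Control and from 3.12 to 3.63 in 3M STZ, which overlapped. After quantile normalization 2 of 5 were higher, against 24.6% of all tested probes. Of the T cell and neutrophil markers 6 had a probe and only S100a9 was bright enough to test (-0.49, not called), while Cd3d, Cd4, Cd8a, Cd2 and Cd5 were under the limit.

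Markers of other cells were compared at 3 months too. Each count is read against the 50.5% of all tested probes that were higher, or the 24.6% after quantile normalization. Of the Mueller glia and astrocyte markers 4 of 6 were higher, namely Vim (1.53 ± 0.23), Gfap (1.29 ± 0.27), S100b (1.02 ± 0.20) and Slc1a3 (0.88 ± 0.21, all SE), with summed levels of 5.60 to 7.10 in 3M Control and 7.08 to 7.51 in 3M STZ, and 3 of 6 were higher after quantile normalization. Of the lens, pigment epithelium and ciliary markers 6 of 9 were higher with a median of 1.42, the largest differences being those of the lens genes Crygd (4.39 ± 0.86), Lenep (2.72 ± 0.38), Crybb1 (1.59 ± 0.43) and Crybb3 (1.47 ± 0.36, all SE). Their summed level of 7.05 to 8.40 in 3M Control and 8.68 to 9.66 in 3M STZ did not overlap, with 2 of 9 higher after quantile normalization. Retinal neuron markers were higher in 7 of 13 (median 0.53), led by Opn1sw (0.75), Grm6 (0.67), Slc32a1 (0.67) and Pvalb (0.63), but in 0 after quantile normalization, where 2 were lower. Endothelial and mural markers were higher in 2 of 4 (Kdr, 0.59, and Flt1, 0.34), with a list median of 0.07. Pdgfrb (-0.19) and Rgs5 (-0.34) did not pass. After quantile normalization 0 of the 4 were higher and their median was -0.13. Of the erythrocyte markers 1 of 3 was higher (Slc4a1, 0.43), on arrays where it was above background on 0 of 12. The part of glial, microglial or lens RNA in the Ccl2 and Cx3cl1 differences was not tested.

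The genes whose levels ran most alike to each tested gene were found over the 24 arrays after each time point was centered on its own mean, among 3137 other named probes. For Ccl2 they were Itgb4 (r = 0.89), Gata1 (0.87) and Anxa5 (0.87), which were 0.85, 0.82 and 0.84 after quantile normalization. For Cx3cl1 they were Trnau1ap, Sod2 and Ip6k1 (all r = 0.97), which became 0.72, 0.92 and 0.25. For Cxcl12 they were Mfn2 (0.92), Acly (0.91) and Scd (0.90), and for Ccl4 Slc28a1 (0.79), Prss21 (0.76) and Cxcr3 (0.66). Ccl2 and Cx3cl1 ran together with r = 0.66 (0.49 after quantile normalization), and Ccl2 and Cxcl12 with r = -0.01. These points share the scaling, brightness and floor of each array as well as the difference between the groups, so the values are a description.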

How the data were processed

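Retinal RNA was measured on 24 arrays. The study's animal table lists fewer 1M Control animals than arrays, so whether each of those arrays is a separate rat is not known. Per the study's methods, the authors scanned the arrays, excluded defective spots, subtracted the local background and normalized within each array with the CodeLink software. Deposited by the authors were each spot's intensity after that subtraction and a second intensity column, scaled by 1 factor per array that lies near its median, both linear. The series table held the same values (0 differed by more than 1e-06), and 3 arrays lacked 1 probe. No pair of arrays was identical, and software flags were not used. Array number and signal over background limit the precision.

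Each array's intensities were divided by the median of its 33849 rat probes, floored at 0.01 and log2-transformed. Testing was limited to the 22025 rat probes whose median over 24 arrays exceeded the 35th percentile of all probes. Groups come from the sample titles. STZ was compared with control at each time point with limma 3.58.1 (R 4.3.3), 4 groups in 1 model, over all tested probes with Benjamini-Hochberg adjustment, called at 0.05 and 1.2-fold (no fold limit for the interaction). The model was tested on simulated data. Of 5469 RefSeq-annotated probes 4674 received a symbol through RefSeq, and a gene with several tested probes was read at the one with the highest level. Named genes are all probes of the set, called genes among the other chemokines and receptors, the 4 largest called changes of each further list, and the 3 most correlated genes. Adam17, the other chemokines and receptors that were not called, and the uncalled T cell and neutrophil markers were named after their values were seen. The genes and lists were chosen with earlier results of these data known. Alternatives were the methods' unequal-variance test, separate models, the replicate block, other normalizations, offsets, floors and filters, a brightness covariate, and each array left out. Subtraction of the bacterial median and quantile normalization within time points were added after seeing the data. Single results of some list members, including calls in the lower direction among the regulators, are not reported here.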

Additional observations from a re-analysis of the deposited data

Results flagged for a closer look

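The effect of STZ on Ccl2 was larger at 3 months than at 1 month by 1.16 on the log2 scale in limma's interaction test. This interaction did not pass with the brightness covariate or with quantile normalization within time points. Nor did it pass without 3M Control 1, 3M Control 3, 3M STZ 5 or 3M STZ 6. Of all tested probes, 15.5% passed the test. Age and array set cannot be told apart between the time points.

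Single arrays lay far from the other 5 of their group in 9 of 76 groups of arrays examined (19 genes), where chance alone gives about 1 in 20. Among the genes of the set, Ccl3 was at -5.54 on 1M STZ 3 and Ccl5 at -2.23 on 3M STZ 2, both under background, and Cxcl12 was at 1.19 on 1M Control 5. Among the other chemokines, Ccl28 was at 0.63 on 1M Control 6 and at 5.82 on 3M STZ 1, and Cxcl1 at 0.40 on 3M Control 2. Among the other receptors, Ccr3 was at -0.17 on 1M Control 1 and at 0.84 on 3M Control 2, and Ackr2 at -3.04 on 3M Control 2. The array 3M Control 2 accounted for 3 of the 9, and it had the lowest median correlation with the other arrays of its group (0.842).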

How the results depend on the processing

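At 3 months 2 genes of the set were called, and 1 (Ccl2) under the methods' test with or without adjustment, quantile normalization over all arrays or within time points, the brightness covariate and subtraction of the bacterial median. Without a filter on dim probes 3 were called, the added one being Ccr2, and with any array left out 2 were called. In the interaction 1 gene was called, and 0 with the brightness covariate or quantile normalization within time points. With 1 array left out the interaction count ran from 0 (without 3M Control 1, 3M Control 3, 3M STZ 5 or 3M STZ 6) to 2 (without 3M Control 6, when Cx3cl1 passed). At 1 month the count was 0 under every alternative run.

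Among the 4 tested genes, directions turned for Ccl2 (-0.021) and Cx3cl1 (-0.052) at 1 month with the brightness covariate. That of Cxcl12 at 3 months turned with quantile normalization over all arrays or within time points (-0.17 in both). Cxcl12 at 1 month ran from -0.24 to 0.24 as each array was left out. Of the genes under the limit for testing, the sign also changed for Ccl5 at 3 months (to 0.48), Ccr2 at 1 month (to 0.077) and Cx3cr1 at both times. None of these was called. The causes were not tested.

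Over all probes, the calls at 3 months fell from 11911 to 6948 with quantile normalization, 5682 with the bacterial median subtracted, 5536 with quantile normalization within time points, 4058 with the brightness covariate, and 3722 (1921 adjusted) with the methods' test, and ran from 8734 to 14055 with each array left out. The share of calls that were higher was 93.4%, against 78.1% with quantile normalization, 80.6% within time points, 83.8% with the bacterial median subtracted and 69.4% without the filter. It was 96.5% with the brightness covariate and 99.2% with a filter at the bacterial 95th percentile. The interaction calls (3414) fell to 2387, 1694, 866 and 1228 under quantile normalization, the bacterial subtraction, quantile normalization within time points and the brightness covariate, and ran from 759 to 9230 with each array left out.

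Numbers in the labels do not pair the rats. Deviations of same-numbered arrays correlated between -0.17 and 0.25 at 1 month and between -0.24 and 0.22 at 3 months, and 2 of 6 and 0 of 6 arrays matched their own number best. With the replicate block the set had 2 calls at 3 months, 0 at 1 month and 1 in the interaction, and all probes 11589, 1 and 3585. The 3 month floor, with bacterial probes near the array median, limits what can be read for Ccl3, Ccl5, Ccr2, Cx3cr1 and Ccl4.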
